A study of Mus musculus with 15 samples.

Results

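The genes described here encode the eukaryotic translation initiation factors and the proteins whose names derive from them, such as the eIF2 kinases and the eIF4E-binding proteins. They were chosen by symbol: every gene whose symbol is Eif followed by a digit and that has at least 1 probe set assigned by the platform annotation to that gene alone, leaving out the interferon-induced kinase Eif2ak2. This gave 46 genes of the 18194 gene symbols on the array, measured by 130 probe sets, of which the one brightest on average over the 15 arrays stood for each gene. A probe set entered the tests if its mean log2 signal reached 6.22, the 40th percentile, which 44 of the 46 did (12701 genes in all). Eif2s3y and Eif4a3 stayed under that level. No probe set of the table belongs to Eif2s1 or Eif4g1 alone, and both were not analysed here.

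RNA came from a dendritic cell line derived from the skin epidermis of newborn A/J mice, on 15 arrays in 5 groups of 3: cells given DNFB (dinitrofluorobenzene, a contact allergen), H2O2 (hydrogen peroxide, an oxidant), DPI (an inhibitor of flavoenzymes that make reactive oxygen species), DPI together with DNFB, or no treatment. The labels call the last group non-treated and the series description speaks of vehicle. Neither gives a dose or time, so differences between agents cannot be told apart from dose and timing, and no label tells whether replicate arrays are separate cultures, so p-values measure only the spread between arrays. All groups share the one cell line.

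Initiation begins when eIF2, loaded with GTP and the initiator tRNA, joins the small ribosomal subunit together with eIF1, eIF1A, eIF3 and eIF5. The eIF4F complex (the cap-binding protein eIF4E, the helicase eIF4A and the scaffold eIF4G) brings this assembly to the capped mRNA, and eIF5B joins the subunits. The pathway is held at a pair of known points. Stress-activated kinases phosphorylate eIF2 and so block its exchange factor eIF2B, which lowers general translation and favours mRNAs such as that of Atf4, while hypophosphorylated 4E-BP proteins take up eIF4E and keep it from eIF4G. Dendritic cells change their protein synthesis when they are activated. The arrays measured mRNA only, not phosphorylation or translation.

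Signals below are in MAS5 units after each array was brought to a trimmed mean of 500, and log2 fold changes are on the scale of log2(signal + 15). Since a signal also depends on the probes, levels are compared between groups and not between genes. Of 12 dendritic cell markers, 11 passed the level for testing (Ccr7 did not). Of markers of other cell types on the array, 2 of 5 of keratinocytes (Krt5 and Cdh1), 1 of 5 of fibroblasts, 2 of 3 of B cells, 2 of 4 of melanocytes, 1 of 4 of mast cells and 0 of 3 of T cells reached it. The level is low, and reaching it does not by itself show expression. Among the dendritic cell markers, Flt3 and Cd207 passed at median signals of 72.1 and 90.6. The B cell markers Cd79b and Ms4a1 passed at 65.7 and 95, and the melanocyte markers Tyr and Pmel at 77.3 and 62.5. Within a group, pairs of arrays had correlations of 0.946 to 0.973 over genes. The ratio of 3' to 5' signal of beta-actin, which rises with RNA degradation or incomplete copying, was 2.07, 1.5 and 2.29 on the DPI + DNFB arrays and lay between 1.19 and 1.53 on the other 12. Its part in the results with DPI + DNFB was not tested beyond a fit with it as a covariate. Because the highest ratios, 2.07 and 2.29, belong to that treatment, the fit cannot fully separate the ratio from the treatment. A call can end in that fit without its change becoming smaller. The text names some of the calls of Eif genes that ended with the ratio as a covariate in the fit, where 85 of 143 calls were kept. Results of that fit are not given for genes outside the list or for probe sets of several genes.

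RefSeq start sites gave promoters for 37 of the 46 genes. Those of 4 genes whose changes held under most settings below are shown (GRCm38.p6, 5′ to 3′ on the gene's strand, ending at the base before the annotated gene start): the kinase Eif2ak3 and the helicase Eif4a2, which moved in opposite directions in different treatments, and the eIF3 subunits Eif3f and Eif3k, which were higher with DPI + DNFB than with DNFB. Of the Eif4a2 calls against non-treated cells, only the higher one with DPI + DNFB also held without any 1 array. Capitals mark CACGTG (the E-box bound by MYC and MITF family factors) and CCAAT or its complement ATTGG (the NF-Y box).
Eif2ak3 (chr6:70844265-70844483, plus strand): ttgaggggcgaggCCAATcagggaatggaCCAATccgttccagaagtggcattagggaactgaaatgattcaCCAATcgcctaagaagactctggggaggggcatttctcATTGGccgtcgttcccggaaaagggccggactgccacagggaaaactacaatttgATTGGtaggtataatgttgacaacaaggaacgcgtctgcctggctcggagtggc
Eif4a2 (chr16:23107218-23107467, plus strand): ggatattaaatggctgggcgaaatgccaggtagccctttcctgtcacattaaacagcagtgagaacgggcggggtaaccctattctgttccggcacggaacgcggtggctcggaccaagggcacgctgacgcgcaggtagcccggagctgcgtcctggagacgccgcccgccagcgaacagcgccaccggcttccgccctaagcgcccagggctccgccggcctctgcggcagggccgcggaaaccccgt
Eif3f (chr7:108934165-108934414, plus strand): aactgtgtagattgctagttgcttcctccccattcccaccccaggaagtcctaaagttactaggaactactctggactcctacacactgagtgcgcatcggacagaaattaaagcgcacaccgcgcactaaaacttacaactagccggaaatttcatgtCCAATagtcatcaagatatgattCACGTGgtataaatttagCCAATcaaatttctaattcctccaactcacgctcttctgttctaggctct
Eif3k (chr7:28981891-28982138, minus strand): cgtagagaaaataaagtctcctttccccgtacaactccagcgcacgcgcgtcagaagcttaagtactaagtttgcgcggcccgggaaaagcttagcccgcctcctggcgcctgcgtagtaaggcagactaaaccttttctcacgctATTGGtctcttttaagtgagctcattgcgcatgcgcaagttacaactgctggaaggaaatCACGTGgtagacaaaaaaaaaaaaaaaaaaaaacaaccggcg

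The Eif2ak3 stretch holds 5 CCAAT boxes, those of Eif3f and Eif3k 1 CACGTG each, and that of Eif4a2 no match to any of the 4 motifs searched. Counted in the 250 bases upstream, on both strands, CACGTG lay in 10 of the 50 promoter windows of the Eif genes (20%, 8 genes) and in 6.02% of 32851 windows of all genes. CCAAT lay in 13 of the 50 (26%) and in 33.8% of all windows. The antioxidant response core TGACNNNGC lay in 6 (12%) and in 10.2%, and TGATGNAAT, a site of ATF4 with C/EBP partners, in none and in 0.816%. The marked matches do not overlap each other. Windows of 1 gene can overlap, and a match is a description of letters and not of binding.

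Of the 44 genes tested, 39 passed an adjusted p below 0.05 in at least 1 of 7 pairwise comparisons (88.6%), beside 69% of all genes. With DNFB 13 passed against non-treated cells, 5 higher and 8 lower, beside 24.4% of all genes (10.5% higher, 13.9% lower). With H2O2 16 passed, 11 higher and 5 lower (all genes 28.3%, of which 10.9% higher and 17.4% lower). DPI gave 20, with 13 higher and 7 lower (all genes 31.8%, 13.3% higher and 18.4% lower). DPI + DNFB gave 21, with 12 higher and 9 lower (all genes 33.8%, 15% higher and 18.7% lower). The share of the Eif genes that passed was thus 29.5%, 36.4%, 45.5% and 47.7% in these comparisons, which share the non-treated arrays. Their median log2 fold changes were -0.064, 0.20, 0.088 and 0.056, beside -0.055, -0.065, -0.007 and 0.024 over all genes. Their quartiles were -0.3 and 0.076, -0.046 and 0.364, -0.236 and 0.351, and -0.248 and 0.361 in the same order. Over all genes the quartiles were -0.367 and 0.251, -0.419 and 0.264, -0.398 and 0.329, and -0.375 and 0.433. A share passed also depends on each gene's spread between arrays, whose part in the higher Eif shares was not tested. With quantile normalization DPI gave 9 higher and 7 lower and DPI + DNFB 7 higher and 12 lower, so the lean toward higher calls depends on the scaling. Without non-treated replicate 3 the count for DPI was 13. Of the calls with DPI + DNFB, those of Eif4a2, Eif4ebp1 and Eif5b were kept with the beta-actin ratio as a covariate. All others of that comparison ended there.

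**Figure D1:**
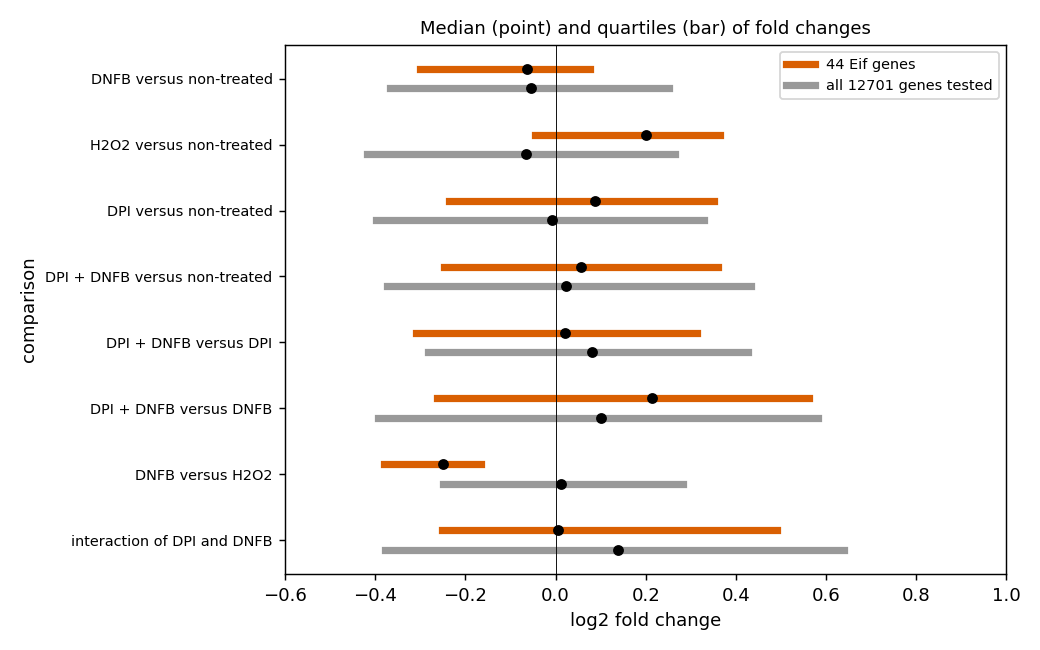
Log2 fold change (horizontal axis) in each of 8 comparisons, with orange for the 44 Eif genes and grey for all 12701 genes tested; points are medians and bars run between the quartiles. The median of the Eif genes lies above that of all genes with H2O2 against non-treated cells (0.20 and -0.065) and below it with DNFB against H2O2 (-0.25 and 0.011).

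DNFB against H2O2 gave 15 Eif genes, 2 higher and 13 lower (all genes 14.7%, 8.75% higher and 6% lower). Of the 44 genes 38 lay below 0, with a median of -0.25 (0.011 over all genes). Eif4a2, Eif2s3x, Eif3d and Eif2ak3 kept their calls in this comparison under 10 other settings of the fit and without any 1 of the 15 arrays. With quantile normalization 9 genes passed, 2 higher and 7 lower, with cyclic loess 8 (2 and 6), and without DNFB replicate 1 9.

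DPI + DNFB set against DPI gave 15 Eif genes, 8 higher and 7 lower (all genes 27.8%, 14.1% higher and 13.7% lower). Set against DNFB it gave 26, with 16 higher and 10 lower (all genes 44.2%, 22.9% higher and 21.3% lower). These were 34.1% and 59.1% of the Eif genes, with medians of 0.022 and 0.22 (0.080 and 0.10 over all genes). With the beta-actin ratio as a covariate 3 and 11 genes passed. With quantile normalization the genes that passed against DNFB split into 14 higher and 13 lower.

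**Figure D2:**
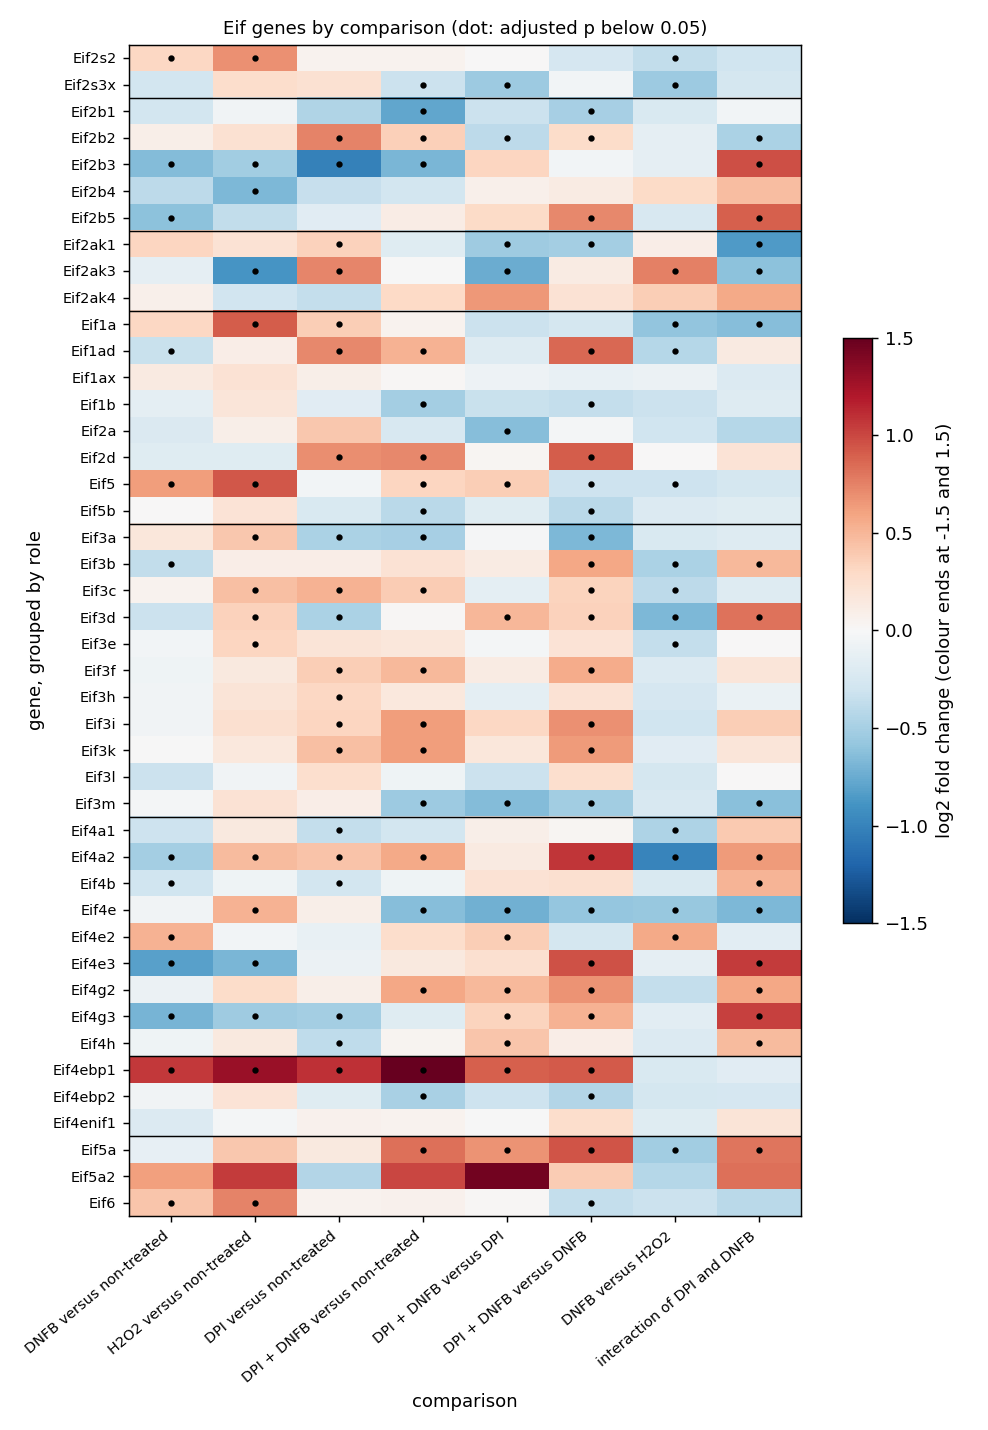
Log2 fold change (colour) of each of the 44 Eif genes tested (rows, grouped by role) in 8 comparisons (columns); a dot marks an adjusted p below 0.05. Eif4ebp1 is the one row with higher calls in all 4 comparisons with non-treated cells, between 1.07 and 1.99.

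Eif4ebp1 encodes 4E-BP1, which binds eIF4E and blocks cap-dependent initiation. It was the one Eif gene that rose with every treatment. Eif4ebp1 had signals of 3326, 3559 and 3501 with DNFB, 4025, 4079.9 and 4110.1 with H2O2, 3712, 3934 and 3031 with DPI, 6527, 6580.4 and 6626 with DPI + DNFB, against 1695, 1853 and 1416 in non-treated cells. All 12 treated arrays lay above the 3 non-treated ones, and the DPI + DNFB arrays lay above all others. It was 2.09-fold higher with DNFB (log2 fold change 1.07 ± 0.11 SE, adjusted p = 7.21e-07), 2.46-fold higher with H2O2 (log2 fold change 1.30 ± 0.11 SE, adjusted p = 5.41e-08) and 2.14-fold higher with DPI (log2 fold change 1.10 ± 0.11 SE, adjusted p = 4.19e-07). With DPI + DNFB it was 3.97-fold higher than in non-treated cells (log2 fold change 1.99 ± 0.11 SE, adjusted p = 3.72e-10), 1.86-fold higher than with DPI (log2 fold change 0.89 ± 0.11 SE, adjusted p = 1.88e-05) and 1.9-fold higher than with DNFB (log2 fold change 0.92 ± 0.11 SE, adjusted p = 1.7e-06). The difference between the effect of DNFB with DPI and without it did not pass (log2 fold change -0.17 ± 0.16 SE, adjusted p = 0.445), nor did that between DNFB and H2O2 (log2 fold change -0.23 ± 0.11 SE, adjusted p = 0.182). Its probe set 1434976_x_at is of a type that can share probes with other transcripts. A further probe set, 1417562_at, gave 1.03, 1.22, 0.94 and 1.64 in the 4 comparisons with non-treated cells, each of which passed. The dimmer 1417563_at gave 0.16, 0.98, 0.41 and 0.69, none of which passed.

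**Figure D3:**
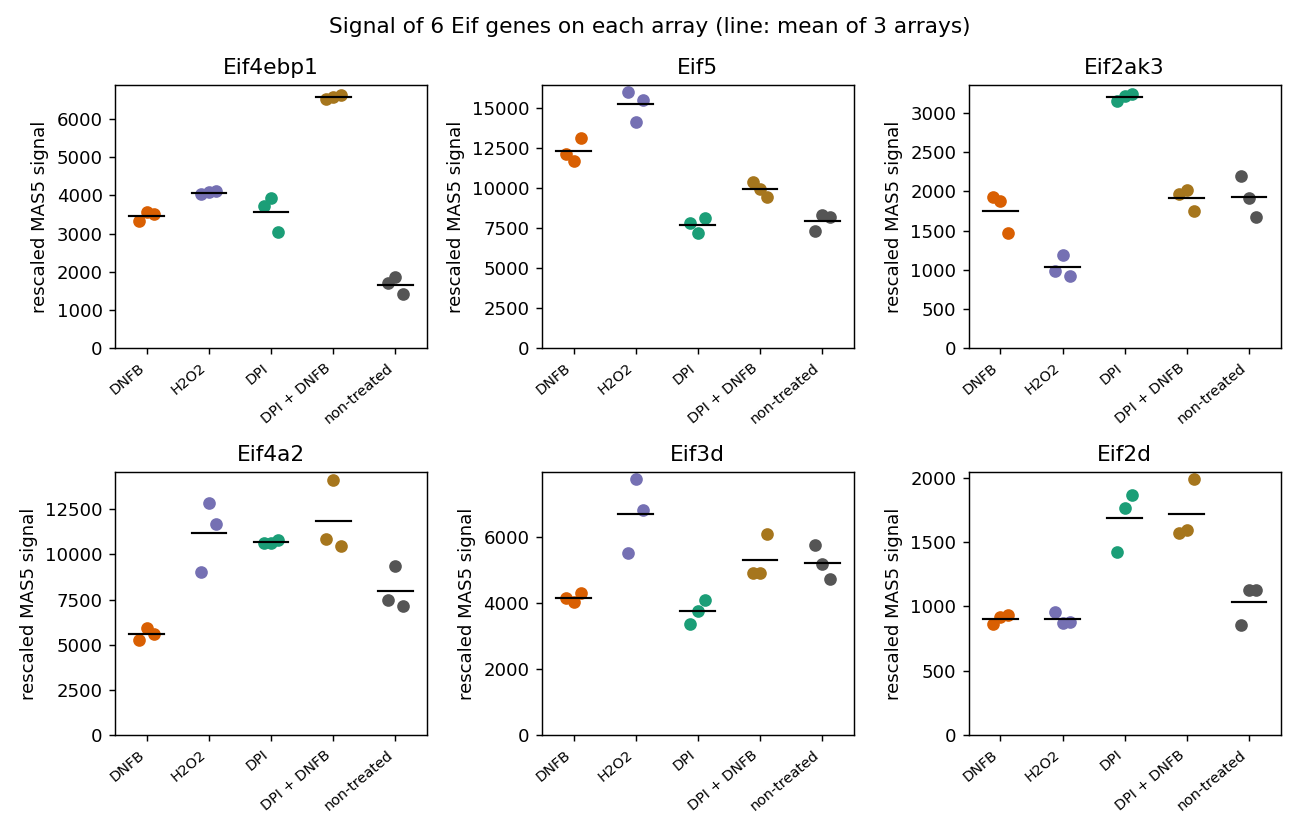
Rescaled signal (vertical axis from 0) of 6 Eif genes on each array, by treatment, with non-treated cells at the right; points are arrays and lines are means of 3. Eif4ebp1 is at 1416 to 1853 in non-treated cells and at 3031 or more on every treated array, and Eif2ak3 is highest with DPI and lowest with H2O2.

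Eif4ebp2 encodes 4E-BP2, a second eIF4E inhibitor. Eif4ebp2 had signals of 2146, 1853 and 1628 with DNFB, 2344, 1999.6 and 2398 with H2O2, 1632, 1788 and 1693 with DPI, 1370.4, 1346 and 1412 with DPI + DNFB, against 2008, 2081 and 1740.5 in non-treated cells. All DPI + DNFB arrays lay below those of the other groups. It was 1.4-fold lower with DPI + DNFB than in non-treated cells (log2 fold change -0.49 ± 0.12 SE, adjusted p = 0.00334) and 1.35-fold lower than with DNFB (log2 fold change -0.43 ± 0.12 SE, adjusted p = 0.00562), opposite to Eif4ebp1. Both calls ended with the beta-actin ratio as a covariate, and with the mean of all its probe sets, which gave 0.023 against DNFB. Eif4enif1, the carrier that takes eIF4E into the nucleus, passed in none of the comparisons, with pairwise log2 fold changes between -0.20 and 0.26.

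The eIF2 kinases each answer to a different stress. Of the 3 tested, 2 passed as higher with DPI (Eif2ak1 and Eif2ak3) and 1 as lower with H2O2 (Eif2ak3). Over all genes 13.3% passed as higher with DPI and 17.4% as lower with H2O2. Eif2ak3 encodes PERK, the kinase of endoplasmic reticulum stress. Eif2ak3 had signals of 1931, 1871 and 1465 with DNFB, 989, 1194 and 924 with H2O2, 3155, 3217 and 3241 with DPI, 1961, 2016 and 1750.4 with DPI + DNFB, against 2194, 1911 and 1675 in non-treated cells. The DPI arrays lay above all others and the H2O2 arrays below all others. Eif2ak3 rose with DPI (1.67-fold higher, log2 fold change 0.74 ± 0.13 SE, adjusted p = 0.000242) and fell with H2O2 (1.85-fold lower, log2 fold change -0.89 ± 0.13 SE, adjusted p = 3.99e-05). It was 1.68-fold higher with DNFB than with H2O2 (log2 fold change 0.75 ± 0.13 SE, adjusted p = 0.000706). With DPI + DNFB it was 1.68-fold lower than with DPI (log2 fold change -0.74 ± 0.13 SE, adjusted p = 0.000369), which ended with the beta-actin ratio as a covariate, and it stood at -0.0069 against non-treated cells (adjusted p = 0.975). Its promoter is the one shown above with 5 CCAAT boxes.

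Eif2ak1 encodes HRI, the kinase activated by heme lack and by mitochondrial stress. Eif2ak1 had signals of 1578, 1418 and 1416 with DNFB, 1399.7, 1428 and 1284 with H2O2, 1496, 1433 and 1548 with DPI, 999, 925 and 1173 with DPI + DNFB, against 1294, 1114 and 1116 in non-treated cells. With DPI + DNFB the arrays lay below those of DNFB, H2O2 and DPI but overlapped the non-treated ones. It was 1.42-fold lower than with DNFB (log2 fold change -0.51 ± 0.12 SE, adjusted p = 0.0015) and 1.45-fold lower than with DPI (log2 fold change -0.53 ± 0.12 SE, adjusted p = 0.00236). The call against DPI ended with the mean of its 4 kept probe sets. Its call with DPI against non-treated cells (log2 fold change 0.34 ± 0.12 SE, adjusted p = 0.0311) ended without non-treated replicate 2 (log2 fold change 0.31, adjusted p = 0.108), without non-treated replicate 3 (log2 fold change 0.31, adjusted p = 0.105), without DPI replicate 1 (log2 fold change 0.34, adjusted p = 0.0741) or without DPI replicate 3 (log2 fold change 0.32, adjusted p = 0.0974). With the mean of the probe sets it stood at -0.016 there. Eif2ak4 encodes GCN2, the kinase of amino acid lack. Eif2ak4 had signals of 247, 248 and 271 with DNFB, 192, 202 and 191 with H2O2, 185, 247 and 141 with DPI, 297, 204 and 444 with DPI + DNFB, against 259.6, 328 and 165 in non-treated cells. The groups overlapped, apart from the H2O2 arrays, which lay below those of DNFB and of DPI + DNFB, and Eif2ak4 passed in none of the comparisons (lowest adjusted p = 0.0996, DPI + DNFB against DPI).

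Eif2ak2 encodes PKR, the kinase of double-stranded RNA, which is induced by interferon and is no member of the list. Eif2ak2 had signals of 622, 678 and 634 with DNFB, 905, 1260.1 and 671 with H2O2, 812, 1140.2 and 953 with DPI, 1212, 1529.7 and 1367 with DPI + DNFB, against 697, 800.2 and 1258 in non-treated cells. The DPI + DNFB arrays lay above those of DNFB and overlapped the non-treated ones. It was 2.09-fold higher with DPI + DNFB than with DNFB (log2 fold change 1.06 ± 0.21 SE, adjusted p = 0.000374).

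Of eIF2 itself, Eif2s2 (the beta subunit) and Eif2s3x (the X-linked gamma subunit) were tested. Eif2s2 had signals of 14917, 16742 and 16877 with DNFB, 20420.1, 20914 and 21516 with H2O2, 13534, 12864 and 14247 with DPI, 11894, 15394 and 13597 with DPI + DNFB, against 13098, 12291 and 13869 in non-treated cells. The H2O2 arrays lay above all others. Eif2s2 rose 1.6-fold with H2O2 (log2 fold change 0.68 ± 0.10 SE, adjusted p = 5.37e-05). It also passed with DNFB at 0.31 (adjusted p = 0.0375), a call that ended with no filter, and without non-treated replicate 1 (log2 fold change 0.31, adjusted p = 0.0797), without non-treated replicate 2 (log2 fold change 0.26, adjusted p = 0.141), without DNFB replicate 2 (log2 fold change 0.28, adjusted p = 0.118) or without DNFB replicate 3 (log2 fold change 0.27, adjusted p = 0.121). Eif2s3x was 1.45-fold lower with DNFB than with H2O2 (log2 fold change -0.54 ± 0.12 SE, adjusted p = 0.0048). It was 1.46-fold lower with DPI + DNFB than with DPI (log2 fold change -0.54 ± 0.12 SE, adjusted p = 0.00231), which ended with the beta-actin ratio as a covariate and when DPI + DNFB replicate 2 stood alone. Eif2s3y, its near-identical Y-linked copy, read between 2.56 and 62.8 on all 15 arrays. Short probes may not fully separate the copies.

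The 5 subunits of eIF2B, the exchange factor that reloads eIF2 with GTP and the target of the stress pathway, moved in different directions. Eif2b3 (gamma) fell with all 4 treatments. Eif2b3 had signals of 451, 529 and 578 with DNFB, 489, 714 and 523 with H2O2, 481, 334 and 392 with DPI, 594, 416 and 509.6 with DPI + DNFB, against 894, 719 and 852 in non-treated cells. Every treated array lay below every non-treated one. It was 2.02-fold lower with DPI (log2 fold change -1.01 ± 0.19 SE, adjusted p = 0.000324), 1.61-fold lower with DPI + DNFB (adjusted p = 0.00712), 1.57-fold lower with DNFB (adjusted p = 0.0139) and 1.43-fold lower with H2O2 (adjusted p = 0.0441). The call with DPI + DNFB ended with the beta-actin ratio as a covariate. The call with DNFB ended without non-treated replicate 1 (log2 fold change -0.59, adjusted p = 0.061), without non-treated replicate 3 (log2 fold change -0.62, adjusted p = 0.0507) or without DNFB replicate 1 (log2 fold change -0.55, adjusted p = 0.0687). The call with H2O2 ended with quantile normalization, with cyclic loess, with no filter, and without non-treated replicate 1 (-0.45, adjusted p = 0.138), without non-treated replicate 3 (-0.49, adjusted p = 0.118), without DNFB replicate 2 (-0.52, adjusted p = 0.0527), without H2O2 replicate 1 (-0.41, adjusted p = 0.164), without H2O2 replicate 3 (-0.46, adjusted p = 0.134) or without DPI replicate 3 (-0.52, adjusted p = 0.0525).

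Eif2b2 (beta) moved the other way with DPI. Eif2b2 had signals of 1898, 1977 and 1899 with DNFB, 2125, 2155 and 2084 with H2O2, 3127, 2716 and 3327 with DPI, 2287, 2167 and 2538 with DPI + DNFB, against 1816, 1839 and 1789 in non-treated cells. The DPI arrays lay above all others, and Eif2b2 was 1.67-fold higher with DPI (log2 fold change 0.74 ± 0.10 SE, adjusted p = 1.52e-05). Its call with DPI + DNFB against non-treated cells (0.36) ended with the beta-actin ratio as a covariate, turned to -0.008 with the mean of its probe sets, ended when DPI + DNFB replicate 2 stood alone, and ended without DPI + DNFB replicate 3 (log2 fold change 0.29, adjusted p = 0.0516). Its call against DPI (-0.39) ended without DPI replicate 3 (log2 fold change -0.32, adjusted p = 0.0527).

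The catalytic subunit eIF2B epsilon is encoded by Eif2b5. Eif2b5 had signals of 713, 901 and 1078 with DNFB, 968, 1107 and 1084 with H2O2, 1309, 1121 and 1182 with DPI, 1709.7, 1320.2 and 1417 with DPI + DNFB, against 1376, 1287 and 1415 in non-treated cells. The DNFB and H2O2 arrays lay below the non-treated ones. It was 1.53-fold lower with DNFB (log2 fold change -0.61 ± 0.14 SE, adjusted p = 0.00333) and 1.65-fold higher with DPI + DNFB than with DNFB (log2 fold change 0.73 ± 0.14 SE, adjusted p = 0.000348). With H2O2 it stood at -0.36 (adjusted p = 0.0641). Both its calls ended with the mean of its 2 probe sets, and the second also with the beta-actin ratio as a covariate.

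Eif2b4 (delta) was lower with H2O2. Eif2b4 had signals of 854, 991 and 969.6 with DNFB, 558, 1013 and 791 with H2O2, 913, 928 and 1055 with DPI, 1019.5, 868 and 1189 with DPI + DNFB, against 1167, 1175 and 1364 in non-treated cells. All treated arrays but 1 of DPI + DNFB lay below the non-treated ones. The fall with H2O2 was 1.6-fold (log2 fold change -0.68 ± 0.17 SE, adjusted p = 0.00555), and with DNFB the log2 fold change was -0.39 (adjusted p = 0.113). Eif2b1 (alpha) was lower with DPI + DNFB. Eif2b1 had signals of 665, 679.8 and 727 with DNFB, 629, 869.6 and 971 with H2O2, 415, 680.2 and 796 with DPI, 529, 488 and 438 with DPI + DNFB, against 798, 809 and 915 in non-treated cells. The DPI + DNFB arrays lay below the DNFB, H2O2 and non-treated arrays, and 1 DPI array lay lower still. It was 1.71-fold lower with DPI + DNFB than in non-treated cells (log2 fold change -0.78 ± 0.20 SE, adjusted p = 0.00467), a call that ended with the beta-actin ratio as a covariate and when DPI + DNFB replicate 2 stood alone for that treatment. A lone array has no spread of its own and is assumed there to vary like those of the other groups. Between them the 5 subunits had 2 lower calls with DNFB, 2 lower with H2O2, 1 higher and 1 lower with DPI, and 1 higher and 2 lower with DPI + DNFB. Over all genes 24.4%, 28.3%, 31.8% and 33.8% passed in these comparisons.

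Among the factors that choose the start codon and deliver the initiator tRNA, Eif5 encodes the GTPase activator of eIF2. Eif5 had signals of 12119.6, 11667 and 13119.5 with DNFB, 16006, 14162 and 15504 with H2O2, 7817, 7205 and 8161 with DPI, 10406, 9949 and 9469 with DPI + DNFB, against 7348, 8332 and 8196 in non-treated cells. The H2O2 arrays were highest, followed by those of DNFB and then DPI + DNFB, with no overlap, while the DPI and non-treated arrays were lowest and overlapped. Eif5 rose 1.55-fold with DNFB (log2 fold change 0.63 ± 0.096 SE, adjusted p = 5.75e-05) and 1.91-fold with H2O2 (log2 fold change 0.93 ± 0.096 SE, adjusted p = 5.05e-07). With DPI it stood at -0.042 (adjusted p = 0.796). It has 5 kept probe sets. All 5 lay above 0 with DNFB and with H2O2, but with DPI + DNFB against non-treated cells 1433631_at was lower (-0.40, adjusted p = 0.017), while the set that stands for the gene passed as higher (0.32). That call ended with the beta-actin ratio as a covariate (0.37, adjusted p = 0.188), with quantile normalization, with cyclic loess, with the mean of its probe sets and when DPI + DNFB replicate 2 stood alone. It also ended without non-treated replicate 1 (log2 fold change 0.27, adjusted p = 0.0683) or without DPI + DNFB replicate 1 (log2 fold change 0.29, adjusted p = 0.0561). For that comparison the direction of Eif5 is uncertain.

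Eif1a encodes eIF1A, which helps the ribosome scan. Eif1a had signals of 2724, 3100.3 and 3414 with DNFB, 3965, 4424 and 5610.0 with H2O2, 3052, 3255 and 3290.0 with DPI, 2638, 3077 and 2059 with DPI + DNFB, against 2481, 2496 and 2411 in non-treated cells. The H2O2 arrays lay above all others. It was 1.87-fold higher with H2O2 (log2 fold change 0.90 ± 0.14 SE, adjusted p = 6e-05) and 1.5-fold lower with DNFB than with H2O2 (log2 fold change -0.59 ± 0.14 SE, adjusted p = 0.00732). The call of DNFB against H2O2 ended without H2O2 replicate 3 (log2 fold change -0.45, adjusted p = 0.054). Eif1ax, the X-linked near-copy, passed in none of the comparisons, and its pairwise log2 fold changes lay between -0.12 and 0.21. Probes of such copies can share signal.

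Eif1ad, a gene related to Eif1a by its domain, was higher with DPI. Eif1ad had signals of 1872, 1926 and 1991 with DNFB, 2674, 2848 and 2336 with H2O2, 4101, 3689 and 4294 with DPI, 3303, 3495 and 3733 with DPI + DNFB, against 2924, 2110.4 and 2343 in non-treated cells. The DPI and DPI + DNFB arrays lay above all others. It rose 1.65-fold with DPI (log2 fold change 0.72 ± 0.12 SE, adjusted p = 0.000116), and with DPI + DNFB it was 1.81-fold higher than with DNFB (log2 fold change 0.86 ± 0.12 SE, adjusted p = 8.67e-06) and 1.44-fold higher than in non-treated cells (log2 fold change 0.52 ± 0.12 SE, adjusted p = 0.00208). The last call ended with the beta-actin ratio as a covariate and with the mean of its probe sets. Eif2d encodes a factor that can place initiator tRNA without eIF2. Eif2d had signals of 862, 917 and 932 with DNFB, 952, 873 and 878 with H2O2, 1425, 1763 and 1861 with DPI, 1566, 1593 and 1989 with DPI + DNFB, against 855, 1126 and 1124 in non-treated cells. The DPI and DPI + DNFB arrays again lay above all others. It was 1.62-fold higher with DPI (log2 fold change 0.70 ± 0.14 SE, adjusted p = 0.000704) and 1.87-fold higher with DPI + DNFB than with DNFB (log2 fold change 0.91 ± 0.14 SE, adjusted p = 2.64e-05). The call with DPI ended with the mean of its 5 kept probe sets.

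Eif2a encodes a tRNA-delivering protein that is distinct from the alpha subunit of eIF2. Eif2a had signals of 1459, 1594 and 1518 with DNFB, 2172, 1507 and 1999 with H2O2, 1951, 3229 and 2031 with DPI, 1315, 1651 and 1532 with DPI + DNFB, against 1211, 2200.3 and 2066 in non-treated cells. With DPI + DNFB the arrays lay below those of DPI. That difference (log2 fold change -0.64 ± 0.20 SE, adjusted p = 0.0242) ended with the beta-actin ratio as a covariate (-0.40, adjusted p = 0.58), with quantile normalization, with cyclic loess, with the mean of its probe sets and when DPI + DNFB replicate 2 stood alone. It also ended without DPI replicate 2 (log2 fold change -0.41, adjusted p = 0.158), without DPI + DNFB replicate 1 (log2 fold change -0.55, adjusted p = 0.091) or without DPI + DNFB replicate 3 (log2 fold change -0.66, adjusted p = 0.0532). Eif5b, the subunit-joining GTPase, was 1.33-fold lower with DPI + DNFB than with DNFB (log2 fold change -0.41 ± 0.12 SE, adjusted p = 0.00694). Eif1b stood at -0.51 with DPI + DNFB against non-treated cells (adjusted p = 0.00831), a call that ended without non-treated replicate 3 (log2 fold change -0.41, adjusted p = 0.0516), with the beta-actin ratio as a covariate and when DPI + DNFB replicate 2 stood alone.

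The 11 subunits of eIF3 tested form the scaffold that holds the small subunit and the mRNA. With H2O2 4 passed, each as higher (Eif3a, Eif3c, Eif3d and Eif3e). The call of Eif3e (0.32) ended with no filter, with quantile normalization, with cyclic loess, and without non-treated replicate 1 or H2O2 replicate 3. With DPI 5 subunits were higher and 2 lower, with DPI + DNFB 4 higher and 2 lower, and with DNFB 1 passed, as lower (Eif3b, -0.37). Over all genes 10.9% passed as higher with H2O2 and 13.9% as lower with DNFB. Higher and lower calls made up 13.3% and 18.4% with DPI, and 15% and 18.7% with DPI + DNFB. These eIF3 calls with DPI + DNFB each ended with the beta-actin ratio as a covariate. Higher calls of Eif3f, Eif3h and Eif3i with DPI ended with quantile normalization, with cyclic loess, and each without at least 1 array. The call of Eif3b ended without non-treated replicate 1, DNFB replicate 1 or DNFB replicate 3. Eif3k had signals of 5099.7, 4539.7 and 5739 with DNFB, 5713, 6013 and 5471 with H2O2, 7404, 6547 and 7134 with DPI, 7389, 7411 and 9104 with DPI + DNFB, against 5742, 4762 and 4886 in non-treated cells. The DPI and DPI + DNFB arrays lay above all others. Eif3k was 1.37-fold higher with DPI (log2 fold change 0.46 ± 0.11 SE, adjusted p = 0.00435) and 1.55-fold higher with DPI + DNFB than with DNFB (log2 fold change 0.63 ± 0.11 SE, adjusted p = 0.000137). Eif3i had signals of 14149, 15373 and 17539 with DNFB, 18837, 18851 and 20140.0 with H2O2, 21023, 21288 and 18568 with DPI, 21760.2, 25430.3 and 28647 with DPI + DNFB, against 14301, 16699.5 and 17961 in non-treated cells. The DPI + DNFB arrays lay above all others. Eif3i was 1.61-fold higher with DPI + DNFB than with DNFB (log2 fold change 0.68 ± 0.12 SE, adjusted p = 0.000106) and 1.55-fold higher than in non-treated cells (adjusted p = 0.000438). The call against non-treated cells ended with the beta-actin ratio as a covariate. Eif3f, whose promoter is shown with that of Eif3k, was 1.47-fold higher with DPI + DNFB than with DNFB (log2 fold change 0.56 ± 0.10 SE, adjusted p = 0.000206). Eif3c, a core subunit, was 1.36-fold higher with H2O2 (log2 fold change 0.45 ± 0.11 SE, adjusted p = 0.00333) and 1.44-fold higher with DPI (log2 fold change 0.53 ± 0.11 SE, adjusted p = 0.000787).

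Eif3d, the cap-binding subunit, was lower with DPI and, less firmly, higher with H2O2. Eif3d had signals of 4138, 4042 and 4316 with DNFB, 5524, 7759 and 6814 with H2O2, 3374, 3771 and 4105 with DPI, 4911, 4919 and 6082 with DPI + DNFB, against 5748, 5176 and 4719 in non-treated cells. The DNFB and DPI arrays lay below the non-treated ones, and the other groups overlapped them. Eif3d was 1.39-fold lower with DPI (log2 fold change -0.47 ± 0.13 SE, adjusted p = 0.00691) and 1.59-fold lower with DNFB than with H2O2 (log2 fold change -0.67 ± 0.13 SE, adjusted p = 0.00124). With DNFB it stood at -0.32 (adjusted p = 0.0739). Its call with H2O2 (log2 fold change 0.35 ± 0.13 SE, adjusted p = 0.0433) ended with the beta-actin ratio as a covariate, with quantile normalization, with cyclic loess, with no filter and with only the arrays compared. It also ended without non-treated replicate 2 (0.35, adjusted p = 0.0967), without non-treated replicate 3 (0.28, adjusted p = 0.172), without DNFB replicate 1 (0.35, adjusted p = 0.0525), without DNFB replicate 2 (0.35, adjusted p = 0.051), without DNFB replicate 3 (0.35, adjusted p = 0.0517), without H2O2 replicate 2 (0.24, adjusted p = 0.219), without H2O2 replicate 3 (0.33, adjusted p = 0.112) or without DPI replicate 2 (0.35, adjusted p = 0.0501). The effect of DNFB was 0.81 higher with DPI than without it (adjusted p = 0.00161), the one interaction call of the list that held under the 10 settings and without any 1 array.

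Eif3a encodes the largest subunit. Eif3a had signals of 16989, 15749 and 19351 with DNFB, 20898, 18114 and 22052 with H2O2, 10904, 12268 and 10016 with DPI, 9550.1, 12655 and 10628 with DPI + DNFB, against 12636, 16868 and 16927 in non-treated cells. The DPI arrays lay below the non-treated ones, those of DPI + DNFB overlapped them narrowly, and those of H2O2 lay above. It was 1.59-fold lower with DPI + DNFB than with DNFB (log2 fold change -0.67 ± 0.13 SE, adjusted p = 0.000424), which ended with the beta-actin ratio as a covariate and when DPI + DNFB replicate 2 stood alone. Its call with DPI (log2 fold change -0.48 ± 0.13 SE, adjusted p = 0.0103) ended without non-treated replicate 2 (log2 fold change -0.41, adjusted p = 0.0562), without non-treated replicate 3 (log2 fold change -0.40, adjusted p = 0.0573) or without DPI replicate 3 (log2 fold change -0.41, adjusted p = 0.0578), and its call with H2O2 (log2 fold change 0.40 ± 0.13 SE, adjusted p = 0.0298) ended with quantile normalization, with cyclic loess, with no filter, with the mean of its probe sets, and without non-treated replicate 1 (log2 fold change 0.26, adjusted p = 0.181), without H2O2 replicate 1 (log2 fold change 0.38, adjusted p = 0.0816) or without H2O2 replicate 3 (log2 fold change 0.34, adjusted p = 0.118). Eif3m was lower with DPI + DNFB. Eif3m had signals of 3464, 3382 and 3677 with DNFB, 4143, 4089 and 4242 with H2O2, 4091, 3535 and 3883 with DPI, 2381, 2766 and 2188 with DPI + DNFB, against 3432, 3396 and 3897 in non-treated cells. All DPI + DNFB arrays lay below those of the other groups. It was 1.57-fold lower with DPI + DNFB than with DPI (log2 fold change -0.65 ± 0.10 SE, adjusted p = 0.000163) and 1.46-fold lower than in non-treated cells (log2 fold change -0.55 ± 0.10 SE, adjusted p = 0.000442). Both calls ended with the beta-actin ratio as a covariate and with the mean of its 2 probe sets, which gave 9e-04 against non-treated cells. The call against non-treated cells also ended when DPI + DNFB replicate 2 stood alone. Eif3l passed in none of the comparisons, and Eif3b, Eif3e, Eif3f and Eif3h had changes under 1.5-fold throughout.

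Among the eIF4 proteins, Eif4a2 encodes an RNA helicase that unwinds the 5′ leader. Eif4a2 had signals of 5280.4, 5907 and 5575 with DNFB, 9009.5, 12848 and 11682 with H2O2, 10625, 10655 and 10799 with DPI, 10860.1, 14139.7 and 10480.0 with DPI + DNFB, against 7466, 9351 and 7135 in non-treated cells. The DNFB arrays lay below all others, the DPI and DPI + DNFB arrays lay above the non-treated ones, and the H2O2 arrays overlapped these. Eif4a2 was 1.98-fold lower with DNFB than with H2O2 (log2 fold change -0.98 ± 0.14 SE, adjusted p = 7.09e-05). It was 2.1-fold higher with DPI + DNFB than with DNFB (log2 fold change 1.07 ± 0.14 SE, adjusted p = 3.13e-06) and 1.48-fold higher than in non-treated cells (log2 fold change 0.56 ± 0.14 SE, adjusted p = 0.00329). Against non-treated cells it passed as lower with DNFB (log2 fold change -0.51 ± 0.14 SE, adjusted p = 0.00932), which ended without non-treated replicate 2 (log2 fold change -0.39, adjusted p = 0.0689). It passed as higher with H2O2 (0.48), which ended without non-treated replicate 3 (log2 fold change 0.40, adjusted p = 0.065) or without H2O2 replicate 2 (log2 fold change 0.37, adjusted p = 0.0761), and with DPI (0.43), which ended with quantile normalization, with cyclic loess, and without non-treated replicate 1 (log2 fold change 0.39, adjusted p = 0.0696), without non-treated replicate 3 (log2 fold change 0.36, adjusted p = 0.0986) or without DPI replicate 3 (log2 fold change 0.42, adjusted p = 0.0569). Its paralog Eif4a1 stood at -0.31, 0.15, -0.36 and -0.28 with DNFB, H2O2, DPI and DPI + DNFB against non-treated cells. The value with DPI passed (adjusted p = 0.0217), and that call ended without non-treated replicate 1 (log2 fold change -0.33, adjusted p = 0.0701), without non-treated replicate 3 (log2 fold change -0.34, adjusted p = 0.0744) or without DPI replicate 2 (log2 fold change -0.30, adjusted p = 0.0872).

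Eif4e encodes the cap-binding protein. Eif4e had signals of 5573, 5081 and 6512 with DNFB, 7205, 9312 and 9024 with H2O2, 5821, 6127 and 6941 with DPI, 3340.3, 4871 and 3343 with DPI + DNFB, against 5975, 5858 and 5864 in non-treated cells. The H2O2 arrays lay above all others and the DPI + DNFB arrays below all others. By this probe set Eif4e was 1.43-fold higher with H2O2 (log2 fold change 0.52 ± 0.14 SE, adjusted p = 0.00802) and 1.65-fold lower with DPI + DNFB than with DPI (log2 fold change -0.73 ± 0.14 SE, adjusted p = 0.000745). The call against DPI ended with the beta-actin ratio as a covariate and when DPI + DNFB replicate 2 stood alone, and turned to 0.052 with the mean of the probe sets, with which the call with H2O2 ended. The 4 kept probe sets of Eif4e disagreed. Set 1444010_at passed as higher with DNFB (2.04), H2O2 (0.92), DPI (1.97) and DPI + DNFB (1.83, adjusted p = 0.000102) against non-treated cells, where 1450908_at, which stands for the gene, gave -0.64 with DPI + DNFB. Set 1423220_at passed as lower with DNFB (-0.46) and DPI (-0.40). The direction of Eif4e is therefore uncertain.

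Eif4e3, which encodes a cap-binding relative, was lower with DNFB and with H2O2. Eif4e3 had signals of 292, 383 and 379.7 with DNFB, 361, 388 and 406 with H2O2, 586, 602 and 569 with DPI, 572, 677 and 854 with DPI + DNFB, against 587, 749.7 and 557 in non-treated cells. The DNFB and H2O2 arrays lay below all others. It was 1.76-fold lower with DNFB (log2 fold change -0.82 ± 0.17 SE, adjusted p = 0.00145), 1.6-fold lower with H2O2 (log2 fold change -0.68 ± 0.17 SE, adjusted p = 0.00557) and 1.94-fold higher with DPI + DNFB than with DNFB (log2 fold change 0.96 ± 0.17 SE, adjusted p = 0.000153). The last of these calls, like the one with H2O2, ended with the mean of its 2 probe sets. Eif4e2, which encodes the repressive relative 4EHP, was 1.44-fold higher with DNFB (log2 fold change 0.53 ± 0.13 SE, adjusted p = 0.00554). Eif4g3 encodes an eIF4G scaffold. Eif4g3 had signals of 1901, 2148 and 1702 with DNFB, 2013, 2089 and 2307 with H2O2, 2328, 2187 and 2003 with DPI, 3077, 2472 and 2705 with DPI + DNFB, against 3182, 3091 and 3025 in non-treated cells. The DNFB, H2O2 and DPI arrays lay below the non-treated ones, and those of DPI + DNFB overlapped them. It was 1.62-fold lower with DNFB (log2 fold change -0.69 ± 0.11 SE, adjusted p = 0.000118), 1.45-fold lower with H2O2 (adjusted p = 0.00129) and 1.43-fold lower with DPI (adjusted p = 0.00174). With the mean of its 3 kept probe sets these values were 0.017, 0.029 and 0.0089.

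Eif4g2 encodes a scaffold without the eIF4E-binding site. Eif4g2 had signals of 30048, 32478 and 28248 with DNFB, 37172, 36446 and 43312 with H2O2, 42141, 30366 and 31377 with DPI, 47272, 42820.1 and 54711 with DPI + DNFB, against 31932, 29731 and 34961 in non-treated cells. The DPI + DNFB arrays lay above those of DNFB, DPI and non-treated cells. It was 1.59-fold higher with DPI + DNFB than with DNFB (log2 fold change 0.67 ± 0.13 SE, adjusted p = 0.000359), but quantile normalization gave -0.18 there and -0.18 against non-treated cells, so its direction depends on the scaling. The call against DNFB also ended with the beta-actin ratio as a covariate, with cyclic loess and with the mean of its probe sets. Eif4b and Eif4h, the helicase partners, had calls under 1.5-fold: Eif4h was 1.3-fold lower with DPI (log2 fold change -0.38 ± 0.093 SE, adjusted p = 0.00417), a call that ended with the mean of its probe sets.

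Eif5a encodes the hypusine-carrying factor that helps ribosomes past stalls. Eif5a had signals of 34257, 35138 and 32184 with DNFB, 48865, 45285 and 52073 with H2O2, 54520.2, 31091 and 39552 with DPI, 63073, 59147 and 73829.6 with DPI + DNFB, against 41329, 32659.8 and 36793 in non-treated cells. The DPI + DNFB arrays lay above all others. It was 1.92-fold higher with DPI + DNFB than with DNFB (log2 fold change 0.94 ± 0.16 SE, adjusted p = 5.67e-05) and 1.77-fold higher than in non-treated cells (log2 fold change 0.82 ± 0.16 SE, adjusted p = 0.000402). Both calls ended with the beta-actin ratio as a covariate, and quantile normalization gave -0.028 and -0.058, so the direction of Eif5a also depends on the scaling. Its probe set 1451470_s_at is of a type that several transcripts can share, and 1437859_x_at gave 0.27 (adjusted p = 0.0982) with DPI + DNFB against non-treated cells. Eif6, the factor that keeps the ribosomal subunits apart, rose with DNFB and H2O2. Eif6 had signals of 4961, 4078 and 5360.4 with DNFB, 6062, 6404 and 5464 with H2O2, 3806, 3549 and 3698 with DPI, 3860.2, 3379 and 3954 with DPI + DNFB, against 3825, 3423 and 3438 in non-treated cells. The H2O2 arrays lay above all others, and the DNFB arrays above those of DPI, DPI + DNFB and non-treated cells. It was 1.67-fold higher with H2O2 (log2 fold change 0.74 ± 0.11 SE, adjusted p = 4.14e-05) and 1.34-fold higher with DNFB (log2 fold change 0.42 ± 0.11 SE, adjusted p = 0.00783). The call with DNFB ended without DNFB replicate 3 (log2 fold change 0.34, adjusted p = 0.0547), and both ended with the mean of its 2 probe sets. Eif5a2, a dim relative, passed nowhere, and its largest log2 fold change was 1.44 ± 0.57 SE for DPI + DNFB against DPI (adjusted p = 0.067).

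Whether the effect of DNFB differed with and without DPI was tested as an interaction, which passed for 17 Eif genes, 11 with a higher effect under DPI and 6 with a lower one (all genes 31.1%, 17.3% and 13.8%). The 2 effects are measured on separate arrays. Largest was Eif4e3, at 0.24 with DPI and -0.82 without (difference 1.05, adjusted p = 0.00266), followed by Eif4g3 at 0.34 and -0.69 (adjusted p = 6.8e-05). Both ended with the mean of all their probe sets. The 9 tested cap and helicase genes had 6 higher and 1 lower call. With the beta-actin ratio as a covariate 9 genes passed, and the calls of Eif1a, Eif2ak3, Eif2b3, Eif3b, Eif3m, Eif4e, Eif4g2, Eif4h and Eif5a ended. With the mean of all probe sets 8 genes passed.

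**Figure D4:**
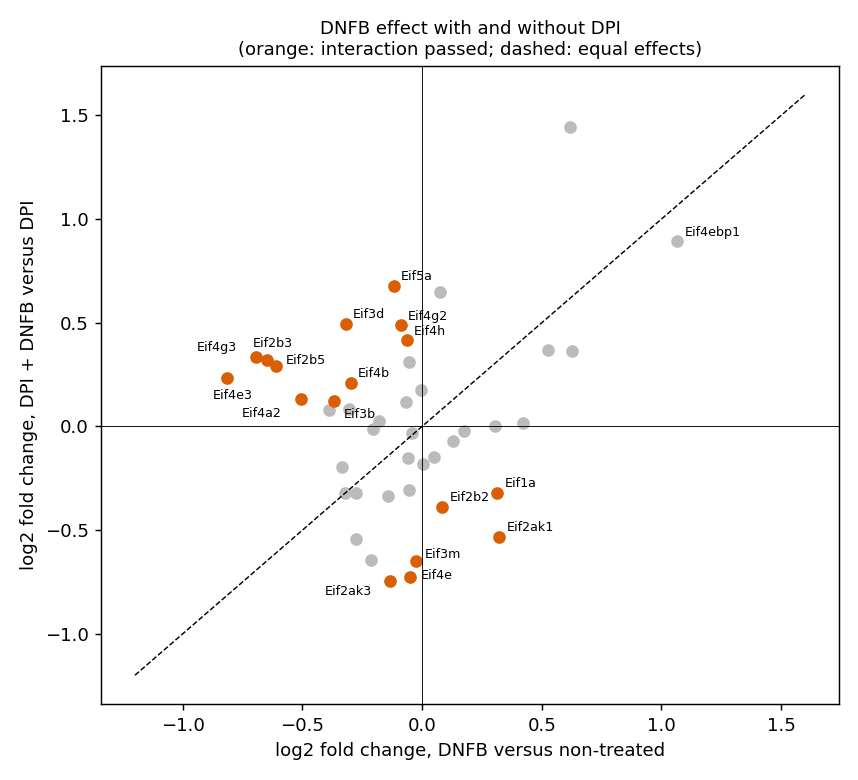
Effect of DNFB on each of the 44 Eif genes as log2 fold change, without DPI (horizontal axis) and with DPI (vertical axis); orange genes passed the test of the difference and the dashed line marks equal effects. Eif4ebp1 lies near the line (1.07 and 0.89), whereas Eif4e3 (-0.82 and 0.24) and Eif2ak3 (-0.13 and -0.74) lie off it.

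Other genes of the pathway give the setting. Their fit with the beta-actin ratio as a covariate is not given here. Of 14 genes of the integrated stress response outside the Eif family, 13 rose with DNFB and 13 with H2O2, 7 rose and 2 fell with DPI, and 8 rose and 1 fell with DPI + DNFB. Their median log2 fold changes were 0.88, 1.15, 0.41 and 0.72 (all genes -0.055, -0.065, -0.007 and 0.024, with shares passed of 24.4%, 28.3%, 31.8% and 33.8%). Atf4 had signals of 8887, 7058 and 7915 with DNFB, 11586, 12424 and 11661 with H2O2, 2968, 3427 and 2819 with DPI, 6679, 7056 and 7095 with DPI + DNFB, against 5118, 3544 and 4178 in non-treated cells. The DPI arrays lay below the non-treated ones and those of the other treatments above them. Atf4, the transcription factor whose mRNA is favoured when eIF2 is phosphorylated, was lower with DPI (log2 fold change -0.47 ± 0.12 SE, adjusted p = 0.00652) and higher with DNFB (log2 fold change 0.90 ± 0.12 SE, adjusted p = 1.53e-05) and H2O2 (log2 fold change 1.49 ± 0.12 SE, adjusted p = 3.38e-08). Ddit3 had signals of 1331, 1235 and 1159 with DNFB, 1765, 2286 and 1524 with H2O2, 1124, 1014 and 959 with DPI, 3779.8, 3976 and 4593 with DPI + DNFB, against 406, 596 and 287 in non-treated cells. All treated arrays lay above the non-treated ones, and those of DPI + DNFB highest. Ddit3, the ATF4 target CHOP, rose 9.65-fold with DPI + DNFB (log2 fold change 3.27 ± 0.19 SE, adjusted p = 3.81e-10). Ppp1r15a had signals of 1093, 929 and 935 with DNFB, 1138, 1561 and 1063 with H2O2, 1924, 1452 and 1532 with DPI, 3966, 3382 and 3783 with DPI + DNFB, against 409, 249 and 199.7 in non-treated cells. Here too every treated array lay above every non-treated one, and the DPI + DNFB arrays were highest. Ppp1r15a, the regulatory subunit GADD34 that returns eIF2 to its unphosphorylated state, rose 12.9-fold with DPI + DNFB and 5.68-fold with DPI (adjusted p = 2.14e-10 and 1.8e-08).

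For the lists that follow, the shares of all genes that passed were 24.4%, 28.3%, 31.8% and 33.8% with DNFB, H2O2, DPI and DPI + DNFB. Higher calls made up 10.5%, 10.9%, 13.3% and 15% of all genes, and lower calls 13.9%, 17.4%, 18.4% and 18.7%. The medians over all genes were -0.055, -0.065, -0.007 and 0.024. Of 18 tested genes of the mTORC1 and eIF4E control list, 2 rose and 1 fell with DNFB, and 2 rose and 4 fell with H2O2. With DPI 3 rose and 3 fell, and with DPI + DNFB 2 rose and 3 fell. Their median log2 fold changes were 0.025, -0.089, -0.086 and -0.14. The eIF4E kinase gene Mknk2 fell with DPI (log2 fold change -1.22 ± 0.12 SE, adjusted p = 3.31e-07), and Pdcd4, an inhibitor of eIF4A, with H2O2 (log2 fold change -0.99 ± 0.15 SE, adjusted p = 5.92e-05). Deptor, which binds mTOR, fell with DNFB (log2 fold change -1.43 ± 0.17 SE, adjusted p = 3.32e-06) and H2O2 (log2 fold change -1.65 ± 0.17 SE, adjusted p = 5.13e-07). Of 18 other initiation and recycling proteins, 1 rose and 3 fell with DNFB, 4 rose and 1 fell with H2O2, 4 rose and 4 fell with DPI, and 4 rose and 4 fell with DPI + DNFB, with median log2 fold changes of -0.084, -0.018, 0.031 and -0.033. Paip2, a repressor of the poly(A)-binding protein, rose with DPI (log2 fold change 0.89 ± 0.088 SE, adjusted p = 2.71e-07). Of 14 elongation and termination factors, 1 rose and 5 fell with DNFB, 1 rose and 3 fell with H2O2, 1 rose and 4 fell with DPI, and 5 rose and 2 fell with DPI + DNFB, with median log2 fold changes of -0.21, 0.11, 0.017 and 0.036. Eef2k, the kinase that slows elongation, fell with DNFB (log2 fold change -1.53 ± 0.18 SE, adjusted p = 3.6e-06) and H2O2 (log2 fold change -1.62 ± 0.18 SE, adjusted p = 1.62e-06). Of 19 tRNA synthetases, 3 rose and 2 fell with DNFB, 5 rose and 2 fell with H2O2, 4 rose with DPI and 7 with DPI + DNFB, with median log2 fold changes of -0.053, 0.11, 0.16 and 0.24. Aars, the alanine enzyme, rose with DNFB (log2 fold change 0.96 ± 0.13 SE, adjusted p = 1.13e-05) and H2O2 (adjusted p = 6.71e-06).

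Of the 143 calls of Eif genes over the 8 comparisons, 36 held under 10 other settings and without any 1 array. Of the 143, 104 had at least 1 further kept probe set, and in 44 of these a further set pointed the opposite way, in 6 of them passing as well (4 of Eif4e and 2 of Eif5). The count of calls that held was 4 with DNFB, 7 with H2O2, 8 with DPI and 2 with DPI + DNFB against non-treated cells.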

How the data were processed

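Signal was measured on 15 Affymetrix mouse arrays from 1 dendritic cell line, 3 per group. The values are MAS5 signal intensities on a linear scale, deposited by the authors and made with MAS5 and Affymetrix Expression Console, per the submitters' processing notes; their versions are not given in the sources used here. The deposited arrays had a 2% trimmed mean of 250 (6 arrays) or 500 (9 arrays), so each was rescaled to 500. Of 45101 probe sets 64 were array controls, 34945 of the others had 1 gene symbol in the platform annotation, 932 several and 9160 none, and 34741 of the 34945 were matched to current symbols by gene identifier.

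From these, log2(signal + 15) was computed, and 27022 probe sets with a mean log2 signal of at least 6.22 were kept, which gave 12701 genes by the brightest probe set of each. limma 3.58.1 in R 4.3.3 with data.table package version 1.17.8 fitted all 5 groups together (10 residual degrees of freedom, eBayes with an intensity trend) for 7 pairwise comparisons and the interaction, with Benjamini-Hochberg adjustment over all genes and a threshold of 0.05. For single probe sets the adjustment ran over all kept probe sets. The script was tested on simulated data. The number of arrays limits the precision: the median SE of a pairwise log2 difference was 0.197 over all genes.

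The Eif genes, the related lists and the tests were chosen with earlier results of these data known. Eif genes were named without limit, and values per array are given for those with a called change of at least 1.5-fold, for the eIF2 kinases and for Eif4e, Eif4ebp1 and Eif4ebp2. Other genes were named from the lists, at most the 4 largest called changes per list and comparison, besides Atf4, Ddit3, Ppp1r15a and Eif2ak2. The 10 settings under which a call is said to hold were a pseudocount of 64, no filter, quantile normalization, the scaling target as a block, a replicate block, the beta-actin ratio as a covariate, only the arrays compared, the mean of all probe sets, cyclic loess, and DPI + DNFB replicate 2 standing alone for that treatment. The last 2 were chosen after seeing the data, and in the last the lone array is assumed to vary like those of the other groups.

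Groups share replicate numbers. Of 30 pairs of same-numbered arrays, 9 had deviations correlated above 0.1 (range -0.003 to 0.144), and 29 correlated best with their own number. Every replicate 1 array was deposited at a trimmed mean of 250, as was DNFB replicate 3. The labels do not say whether the numbers mark pairs or a shared batch. They were not taken as pairing, and a fit with a replicate block ended no call.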

Additional observations from a re-analysis of the deposited data

Results flagged for a closer look

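For 17 Eif genes the effect of DNFB differed between cells with and without DPI by the interaction test, with limma's adjusted p below 0.05. The differences in log2 fold change, with DPI minus without, were positive for Eif4e3 (1.05), Eif4g3 (1.03), Eif2b3 (0.97), Eif2b5 (0.90), Eif3d (0.81), Eif5a (0.80), Eif4a2 (0.64), Eif4g2 (0.58), Eif4b (0.51), Eif3b (0.49) and Eif4h (0.48). They were negative for Eif2ak1 (-0.85), Eif4e (-0.68), Eif1a (-0.64), Eif3m (-0.63), Eif2ak3 (-0.61) and Eif2b2 (-0.47). All genes passed at 31.1% and the Eif genes at 38.6%. Of these calls only that of Eif3d held under the 10 settings and without any 1 array. With the mean of all probe sets the calls of Eif2ak1, Eif2b2, Eif2b5, Eif3m, Eif4b, Eif4e, Eif4e3, Eif4g2, Eif4g3, Eif4h and Eif5a ended. There Eif3m turned to 0.11 and Eif4g2 to -0.072. The beta-actin 3' to 5' ratio was 2.07, 1.5 and 2.29 on the DPI + DNFB arrays that enter each difference and 1.19 to 1.53 on the other 12, and its part in these differences was not tested beyond the fit with it as a covariate, in which 9 genes passed and the calls of Eif1a, Eif2ak3, Eif2b3, Eif3b, Eif3m, Eif4e, Eif4g2, Eif4h and Eif5a ended.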

How the results depend on the processing

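Of the 143 calls of Eif genes, 143 were kept with a pseudocount of 64, 143 with a replicate block, 141 with the scaling target as a block, 135 with only the arrays compared, 126 with no filter, 114 with cyclic loess, 111 with quantile normalization, 89 with the mean of all probe sets, 85 with the beta-actin ratio as a covariate and 104 when DPI + DNFB replicate 2 stood alone for that treatment. The shared replicate numbers were not taken as pairing, although 29 of 30 pairs correlated best with their own number. With the replicate block the counts were 16, 17, 20, 21, 17, 27, 16 and 18 (in the order DNFB, H2O2, DPI and DPI + DNFB against non-treated cells, DPI + DNFB against DPI and against DNFB, DNFB against H2O2, interaction), and the block ended no call. Leaving out 1 array gave counts of 9 to 14, 12 to 17, 13 to 20, 19 to 22, 11 to 18, 20 to 28, 9 to 16 and 14 to 18 in that order, and 52 calls ended without at least 1 array. Cyclic loess, the subsets at 1 scaling target and the single DPI + DNFB array were chosen after seeing the data.

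The values as deposited, which mix 2 scaling targets, gave by limma 0, 0, 0, 1, 0, 0, 0 and 0 calls (2, 1, 2, 1, 1, 9, 1 and 0 at an unadjusted p below 0.05), and moved the median of all genes to -0.365, -0.064, -0.007, 0.023, 0.079, 0.41, -0.299 and 0.446. DNFB against H2O2 gave 9 calls with quantile normalization and 8 with cyclic loess. The beta-actin covariate gave 3 calls for DPI + DNFB against non-treated cells, 3 against DPI, 11 against DNFB and 9 for the interaction. The mean of all probe sets gave 9 for DPI + DNFB against DPI and 8 for the interaction. The 9 arrays at 500 gave 1 for DNFB, 11 for DPI, 12 for DPI + DNFB against DNFB, 5 for DNFB against H2O2 and 7 for the interaction. The 6 arrays at 250 gave 8, 10, 7 and 11 against non-treated cells, 3 for DPI + DNFB against DPI, 4 for DNFB against H2O2 and 6 for the interaction. With DPI + DNFB replicate 2 alone the counts were 11, 5, 17 and 11 for that group against non-treated cells, DPI and DNFB and for the interaction. Fewer arrays enter these subsets, and the spread of a lone array is taken from the other groups, which among the arrays at 250 is DNFB alone. For the other settings the cause was not tested.

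With quantile normalization calls split into 9 higher and 7 lower (DPI), 7 and 12 (DPI + DNFB), 14 and 13 (DPI + DNFB against DNFB) and 8 and 7 (interaction), and with cyclic loess into 8 and 7, 8 and 10, 14 and 12, and 10 and 7. Directions turned as follows. Quantile normalization gave Eif4g2 -0.18 and Eif5a -0.058 for DPI + DNFB against non-treated cells, and Eif4g2 -0.18 and Eif5a -0.028 against DNFB. The values as deposited gave Eif2s2 -0.028 for DNFB and Eif5 0.027 for DPI + DNFB against DNFB. The beta-actin covariate gave Eif4e2 -0.10 for DPI + DNFB against DPI. The mean of all probe sets gave Eif4g3 0.017 (DNFB), 0.029 (H2O2) and 0.0089 (DPI), Eif2ak1 -0.016 (DPI), Eif2b2 -0.008, Eif3m 9e-04 and Eif4e 0.39 (DPI + DNFB), Eif4e 0.052 (DPI + DNFB against DPI), Eif3m 0.18, Eif4e 0.011 and Eif4ebp2 0.023 (DPI + DNFB against DNFB), Eif4e 0.10 (DNFB against H2O2), and Eif3m 0.11 and Eif4g2 -0.072 (interaction). The arrays at 250 gave Eif3d -0.057 for H2O2. The cause of these turns was not tested.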

Other observations

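A set of 6 probe sets is assigned to an Eif gene together with another gene, and these stood outside the list. Their fit with the beta-actin ratio as a covariate is not given here. The 3 that match Eif3j1 and Eif3j2, near-identical genes of an eIF3 subunit that sits at the mRNA entry channel, were lower with DPI and with DPI + DNFB. Set 1426394_at had signals of 3014, 3312 and 4047 with DNFB, 2689, 3229 and 4208 with H2O2, 1315, 1760.4 and 1771 with DPI, 1232, 1545 and 1204 with DPI + DNFB, against 2786, 2371 and 2758 in non-treated cells. The DPI and DPI + DNFB arrays lay below all others. The 3 sets (1426394_at, 1426395_s_at and 1452052_s_at) gave log2 fold changes of -0.71, -0.71 and -0.53 with DPI (limma, adjusted p = 0.00306, 0.00139 and 0.00124). With DPI + DNFB against non-treated cells they gave -0.99, -0.60 and -0.55 (limma, adjusted p = 0.000147, 0.00478 and 0.000788), and against DNFB -1.37, -0.93 and -1.01. Of these, 1452052_s_at passed as higher with DNFB (0.46, adjusted p = 0.005) and H2O2 (0.37, adjusted p = 0.0197). Which of the Eif3j genes gave the signal cannot be told from these probes.

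The set shared by Eif4ebp3, a further 4E-BP gene, and its neighbour Ankhd1 was higher with DPI + DNFB than in non-treated cells (0.57, adjusted p = 0.00637). The set shared by Eif4a3 and Gm5576 passed in none of the 4 comparisons with non-treated cells, and its signals lay between 3468 and 6443, whereas the set of Eif4a3 alone lay between 4.86 and 22.4.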
